A study of Schizosaccharomyces pombe with 12 samples.

Results

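The ppk genes of the fission yeast Schizosaccharomyces pombe were followed in wild-type cells and in 3 dcr1 mutants. The set comprised every feature whose standard gene name is ppk followed directly by digits, which gave 22 genes of the 5483 features measured. The members were ppk1, ppk3, ppk6, ppk8, ppk9, ppk11, ppk13, ppk14, ppk15, ppk16, ppk18, ppk22, ppk24, ppk25, ppk26, ppk27, ppk29, ppk30, ppk31, ppk32, ppk33 and ppk38. All 22 genes of that name in the reference gene table had a measured feature. A further 12 genes carry a ppk name only as an older synonym and were not counted as members. No feature was filtered out on its level.

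The name ppk was given to putative protein kinases found from the genome sequence, so the genes share a predicted kinase domain and not 1 pathway. Several have since been placed. Ppk18 and Ppk31 are Greatwall-type kinases, relatives of Cek1, and this class acts on the endosulfine Igo1 to hold back the phosphatase PP2A-B55 when nutrients are poor and TOR activity is low. Ppk11 is a germinal centre kinase of the morphogenesis pathway that ends in Orb6, Ppk15 is of the Yak1 type, Ppk32 is a SCY1-type protein linked to TOR signalling, and Ppk29, Ppk30 and Ppk38 resemble the budding yeast kinases Ark1 and Prk1, which act on actin patches and endocytosis. The others are named below without a role.

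RNA levels came from 12 Affymetrix tiling arrays, 3 biological replicates for each of 4 strains. Strain SPB80 was wild-type, SPB81 was dcr1Δ, without the gene for Dicer, SPB287 was dcr1ΔC33 and SPB776 was dcr1-SHSS. The labels give no further allele in any strain, no treatment, no growth medium and no number of clones per strain. From general knowledge, dcr1ΔC33 is read as a shortened C-terminus of Dicer and dcr1-SHSS as point changes in its zinc-binding motif. Dicer is the enzyme of RNA interference that makes small RNAs from long duplexes, and the comparisons ask how each dcr1 allele changes the levels of these kinase genes. All cultures were harvested at an OD600 of 0.5 and total RNA was extracted with hot phenol. Values are log2 levels, 1 per feature and array. Levels are compared here for the same gene between strains, because the response of the probes differs between genes. Between genes they serve only to mark dim features and for orientation.

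The labels were checked against dcr1 itself. The wild-type arrays gave dcr1 levels of 10.49, 10.57 and 10.60, the dcr1Δ arrays 5.52, 5.80 and 5.37, the dcr1ΔC33 arrays 10.86, 10.89 and 10.85, and the dcr1-SHSS arrays 10.67, 10.70 and 10.64. It was 31.8-fold lower in dcr1Δ than in wild-type (log2 change -4.99 ± 0.09 SE, n = 3 arrays per strain, limma adjusted p = 1.15e-10). In dcr1ΔC33 it was 0.31 ± 0.09 higher (adjusted p = 0.0200), which rose to 0.0628 without wild-type array 1 and to 0.0580 without dcr1ΔC33 array 2. In dcr1-SHSS the difference of 0.12 ± 0.09 did not pass (adjusted p = 0.304). Array medians lay between 11.37 and 11.42. In the order wild-type, dcr1Δ, dcr1ΔC33 and dcr1-SHSS, the median SD within a strain over the ppk genes was 0.055, 0.069, 0.037 and 0.049, against 0.071, 0.070, 0.054 and 0.065 over all features.

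ppk31 was the ppk gene that rose in every mutant, and its change was far larger than that of any other member. Against wild-type it was 2.69-fold higher in dcr1Δ, 6.01-fold higher in dcr1ΔC33 and 7.81-fold higher in dcr1-SHSS. ppk8 and ppk24 rose and ppk32 fell in dcr1ΔC33 and dcr1-SHSS, by less than 1.6-fold each. The remaining called changes were small, and 11 of the 22 genes passed the threshold in no mutant, as did 52.7% of all features. All comparisons with wild-type share the same 3 wild-type arrays.

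**Figure D1:**
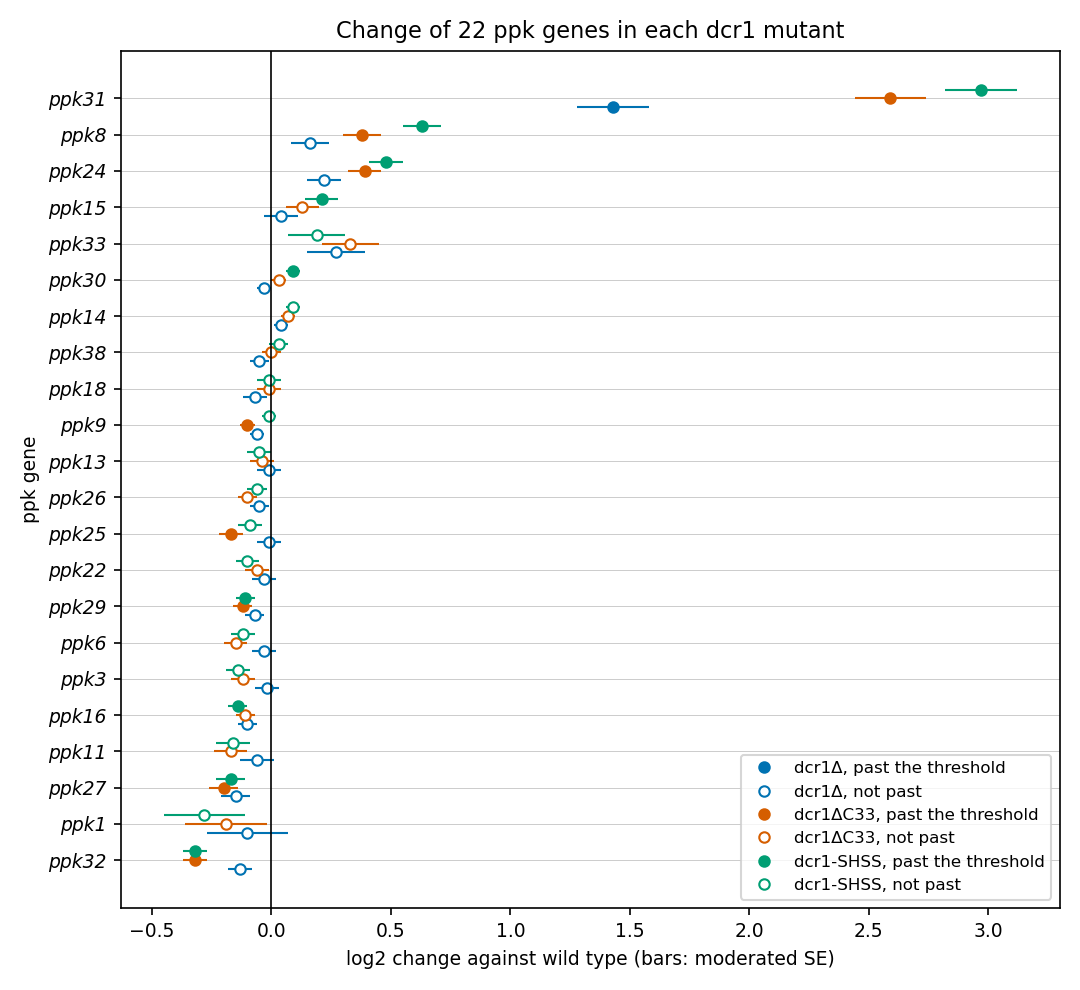
Log2 change of each of the 22 ppk genes against wild-type (x axis, bars the moderated SE). Genes on the y axis are in the order of their change in dcr1-SHSS, with 1 colour per mutant and filled points for an adjusted p below 0.05. ppk31 stands at 1.43, 2.59 and 2.97, and every other point lies between -0.32 and 0.63.

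The level of ppk31 (SPBC725.06c, older name mug25) was 7.78, 7.42 and 7.51 on the wild-type arrays. It was 8.87, 8.88 and 9.24 in dcr1Δ, 10.16, 10.15 and 10.15 in dcr1ΔC33, and 10.27, 10.43 and 10.90 in dcr1-SHSS. The strains stood apart without overlap, in the order wild-type, dcr1Δ, dcr1ΔC33 and dcr1-SHSS. The means were 7.57 ± 0.184, 9.0 ± 0.208, 10.16 ± 0.00515 and 10.53 ± 0.324 (SD, n = 3 each). The 3 dcr1ΔC33 arrays were almost equal, and the dcr1-SHSS arrays were the most spread.

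On the log2 scale ppk31 was higher than wild-type by 1.43 ± 0.15 in dcr1Δ (SE, 95% interval 1.08 to 1.77, adjusted p = 0.000479). The difference was 2.59 ± 0.15 in dcr1ΔC33 (2.24 to 2.93, adjusted p = 1.5e-06) and 2.97 ± 0.15 in dcr1-SHSS (2.62 to 3.31, adjusted p = 4.66e-07). Ordered by log2 change over the 5483 features, ppk31 was 15th from the top in dcr1Δ, 10th in dcr1ΔC33 and 7th in dcr1-SHSS. The differences between the mutants also passed for dcr1ΔC33 over dcr1Δ (1.16 ± 0.15, 2.24-fold, adjusted p = 0.00216) and dcr1-SHSS over dcr1Δ (1.54 ± 0.15, 2.91-fold, adjusted p = 0.000232). The difference between dcr1-SHSS and dcr1ΔC33 was 0.38 ± 0.15 (0.04 to 0.72) and did not pass (adjusted p = 0.278), although their arrays did not overlap. Each of the 5 calls held when any 1 array was left out, with adjusted p up to 0.00326, 2.19e-05 and 5.95e-06 against wild-type and up to 0.0145 and 0.00195 against dcr1Δ.

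ppk31 lay low on the wild-type arrays, among the lowest 20 percent of features by mean level (up to 9.46). Signal of this kind holds background, and the size of its change on the log2 scale depends on how much of it the authors' processing removed, a step on which the sources used here are silent. For orientation, the deleted dcr1 gene gave 5.37 to 5.80 on the dcr1Δ arrays. The culture is bulk material, so more cells with ppk31 RNA and more ppk31 RNA per cell cannot be told apart.

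The labelled target does not tell the 2 strands apart, so the neighbours of each member were read beside it. The genes on either side of ppk31 in the reference gene table are npp1 and pex5, and neither overlaps it. npp1 differed from wild-type by 0.05, -0.00 and 0.01 (± 0.04) in dcr1Δ, dcr1ΔC33 and dcr1-SHSS, and pex5 by 0.11, 0.15 and 0.03 (± 0.06). None of these 6 differences passed (lowest adjusted p = 0.0868, pex5 in dcr1ΔC33). The table also lists 1 RNA gene that overlaps ppk31, which was not analysed here. The other called members likewise overlap listed genes without a measured feature. Of the genes overlapping them, 1 of 2 was measured for ppk8 and for ppk9. It was 1 of 3 for ppk16 and ppk29, 1 of 4 for ppk24 and ppk30, and 2 of 3 for ppk32. For ppk15, ppk25 and ppk27 the 1 overlapping gene was not measured. The part of unmeasured genes in any value was not tested.

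The other Greatwall-type kinases and their substrate gave no call. ppk18 (SPAPB18E9.02c) lay at 12.83, 12.78 and 12.81 on wild-type arrays, at 12.72, 12.70 and 12.79 on dcr1Δ arrays, at 12.79, 12.75 and 12.84 with dcr1ΔC33 and at 12.73, 12.90 and 12.77 with dcr1-SHSS. All strains overlapped with wild-type. The differences were -0.07, -0.01 and -0.01 (± 0.05), with 95% intervals of -0.17 to 0.04, -0.12 to 0.09 and -0.11 to 0.10, and the one in dcr1-SHSS was 0.011 under median centring. cek1 differed from wild-type by -0.00, -0.00 and 0.04 (± 0.04) and igo1, which encodes the endosulfine, by 0.01, -0.01 and -0.04 (± 0.04). Their 95% intervals lay within -0.09 to 0.12 for cek1 and -0.12 to 0.09 for igo1. trm5, which overlaps ppk18, fell by 0.29 ± 0.06 in dcr1ΔC33 and by 0.39 ± 0.06 in dcr1-SHSS (adjusted p = 0.00359 and 0.000536), and its part in the ppk18 value was not tested.

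**Figure D2:**
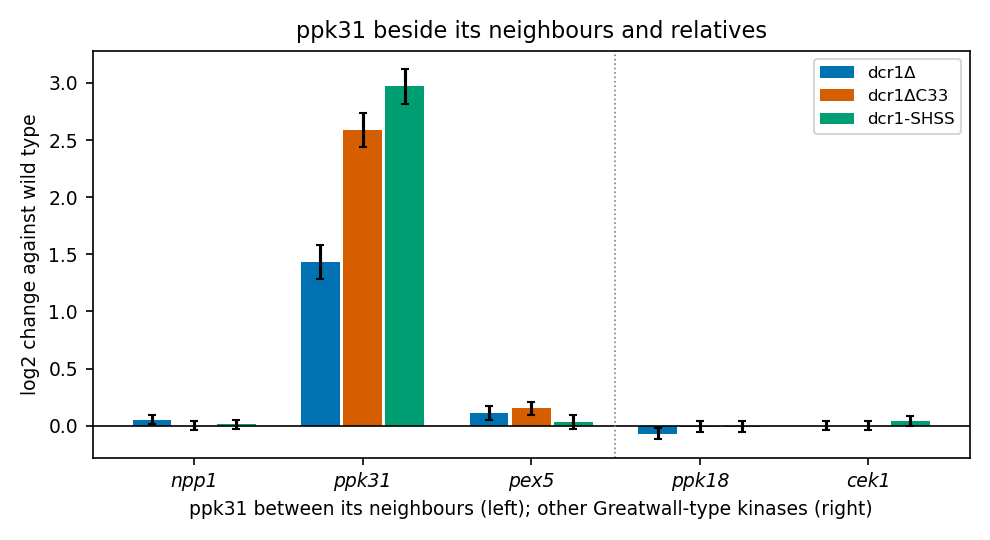
Log2 change against wild-type (y axis, bars from 0, error bars the moderated SE) for ppk31 between its neighbours npp1 and pex5, and for the other Greatwall-type kinase genes ppk18 and cek1, 1 colour per mutant. The bars of ppk31 reach 1.43, 2.59 and 2.97, whereas those of the other 4 genes stay between -0.07 and 0.15.

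Across the Greatwall, PP2A and TOR genes as a list (20 of 20 measured, chosen with earlier results of these data known), 0 genes passed in limma in dcr1Δ (5 at an unadjusted p below 0.05), 2 rose and 4 fell in dcr1ΔC33, and 1 rose and 5 fell in dcr1-SHSS. Of all features, 14.7% rose and 17.6% fell in dcr1ΔC33, and 15.0% rose and 25.8% fell in dcr1-SHSS. The shares of the list that rose, 10.0% and 5.0%, were below these, and the shares that fell were near them. The counts thus do not set the list apart from all features. The median changes of the list were -0.03, -0.02 and -0.03, against 0.00, -0.027 and -0.057 over all features. cdc25, which encodes the phosphatase that activates Cdc2, fell by 0.19 ± 0.05 in dcr1ΔC33 (adjusted p = 0.0167) and by 0.17 ± 0.05 in dcr1-SHSS (adjusted p = 0.0209). In dcr1ΔC33, tor1 (kinase of TOR complex 2 in this yeast) rose by 0.14 ± 0.04 and tor2 (kinase of TOR complex 1) fell by 0.14 ± 0.04, with adjusted p of 0.0188 and 0.0283. In dcr1-SHSS, toc1, which encodes a TOR complex 1 subunit, fell by 0.21 ± 0.07 and ppa2, a PP2A catalytic subunit gene, by 0.15 ± 0.04 (adjusted p = 0.0263 and 0.00931). The list contains no ppk gene.

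ppk8 (SPAC22G7.08) rose next to ppk31 by the largest amount in dcr1-SHSS, whereas ppk24 rose by slightly more in dcr1ΔC33. Wild-type arrays read 10.05, 10.10 and 10.11 and dcr1Δ arrays 10.02, 10.33 and 10.40, whereas dcr1ΔC33 arrays read 10.41, 10.51 and 10.48 and dcr1-SHSS arrays 10.68, 10.74 and 10.73. The dcr1ΔC33 and dcr1-SHSS arrays lay above all wild-type arrays, whereas 1 of the 3 dcr1Δ arrays lay below them. The change was 0.38 ± 0.08 in dcr1ΔC33 (1.30-fold, adjusted p = 0.00586) and 0.63 ± 0.08 in dcr1-SHSS (1.55-fold, adjusted p = 0.000252). In dcr1Δ it was 0.16 ± 0.08 and did not pass (adjusted p = 0.317), but without dcr1Δ array 1 it was 0.28 with an adjusted p of 0.00895. The gene nup45, which overlaps ppk8 and encodes a nuclear pore protein, moved the other way, with -0.24 ± 0.06 in dcr1ΔC33 and -0.17 ± 0.06 in dcr1-SHSS (adjusted p = 0.0107 and 0.0362). ime4, the neighbour on the other side, does not overlap and moved the same way as ppk8 in dcr1-SHSS, by 0.30 ± 0.06 (adjusted p = 0.0044). In dcr1Δ and dcr1ΔC33 it differed by 0.14 and 0.10 and did not pass, and the part of either neighbour in the ppk8 values was not tested.

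ppk24 (SPBC21.07c) lay at 8.40, 8.36 and 8.46 on wild-type arrays and at 8.61, 8.59 and 8.68 on dcr1Δ arrays. It reached 8.69, 8.85 and 8.85 with dcr1ΔC33 and 8.93, 9.02 and 8.72 with dcr1-SHSS. Every mutant array was above every wild-type array. The change was 0.22 ± 0.07 in dcr1Δ (adjusted p = 0.150), 0.39 ± 0.07 in dcr1ΔC33 (1.31-fold, adjusted p = 0.00317) and 0.48 ± 0.07 in dcr1-SHSS (1.40-fold, adjusted p = 0.000742). spn7, which overlaps ppk24 and encodes a septin, differed by -0.04, -0.05 and -0.02 (± 0.08) and did not pass. cdc7, on the other side without overlap, fell in dcr1-SHSS (-0.25 ± 0.06, adjusted p = 0.00932). ppk24 is also among the dim features.

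ppk32 (SPBP23A10.10), the SCY1-type gene, was the member with the largest fall in dcr1ΔC33 and dcr1-SHSS. In dcr1Δ, where no fall passed, ppk27 had a lower value (-0.15 against -0.13). It lay at 11.67, 11.78 and 11.64 on wild-type arrays and at 11.55, 11.64 and 11.51 on dcr1Δ arrays. It went down to 11.42, 11.36 and 11.37 with dcr1ΔC33 and to 11.44, 11.36 and 11.35 with dcr1-SHSS. Every mutant array was below every wild-type array, though for dcr1Δ array 2 the gap vanished in rounding, and dcr1ΔC33 and dcr1-SHSS also lay below dcr1Δ. The change was -0.13 ± 0.05 in dcr1Δ (adjusted p = 0.190), -0.32 ± 0.05 in dcr1ΔC33 (1.24-fold lower, adjusted p = 0.00113) and -0.32 ± 0.05 in dcr1-SHSS (1.25-fold lower, adjusted p = 0.000834). psf1, which overlaps ppk32 and encodes a subunit of the GINS replication complex, differed by 0.04, -0.06 and -0.30 (± 0.05) and passed in dcr1-SHSS (adjusted p = 0.00177). SPBP23A10.11c, on the other side and also overlapping, differed by -0.01, -0.09 and -0.05 (± 0.03) and did not pass. The calls of ppk8, ppk24 and ppk32 in dcr1ΔC33 and dcr1-SHSS held without any 1 of the arrays compared, with adjusted p of at most 0.0228.

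**Figure D3:**
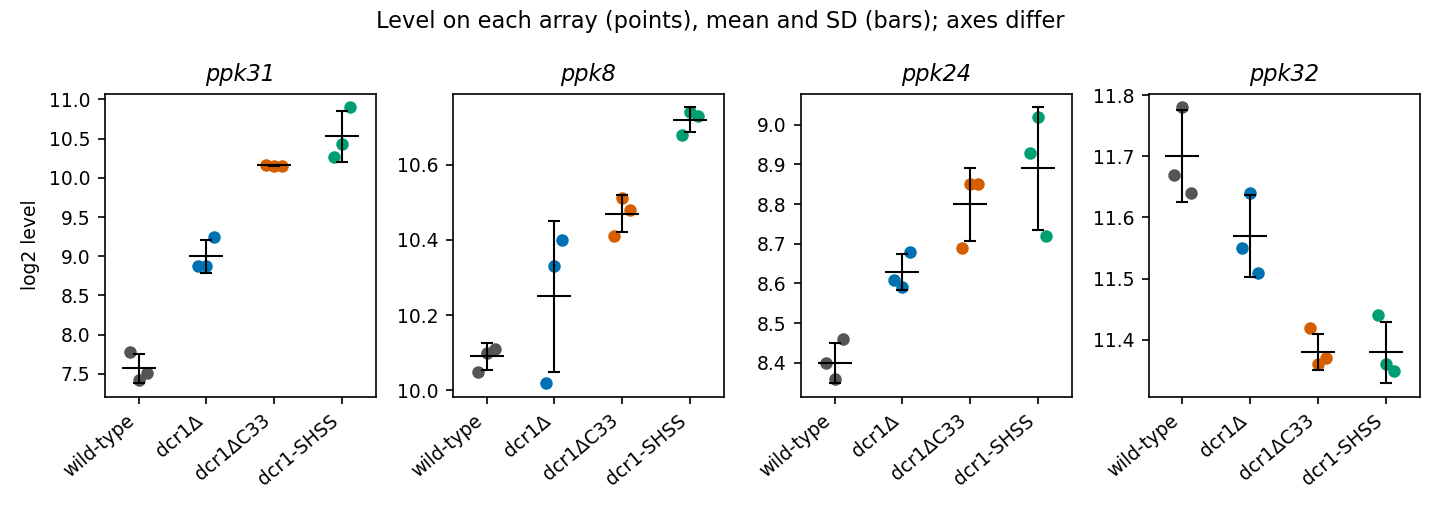
Log2 level of ppk31, ppk8, ppk24 and ppk32 on each array (points), with the mean and SD of the 3 arrays of each strain as bars; the y axes differ between panels. For ppk31 the strain means climb from 7.57 to 10.53, and for ppk32 they drop from 11.70 to 11.38.

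Counted over the family, 1 of 22 members passed the threshold of an adjusted p below 0.05 in dcr1Δ against wild-type, ppk31, higher, beside 3.14% of all features (2.81% higher and 0.328% lower). The other 21 members lay between -0.15 and 0.27 on the log2 scale. The median change of the 22 genes was -0.033, against 0.00 over all features. All 3 dcr1Δ arrays lay above the 3 wild-type arrays for 4 members and below them for 4, beside 11.6% and 9.45% of all features. The largest differences short of the threshold were those of ppk33 (0.27 ± 0.12, adjusted p = 0.269), ppk24 and ppk8.

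In dcr1ΔC33, 8 of 22 members passed against wild-type, 3 higher and 5 lower, which is 36.4% beside 32.3% of all features (14.7% higher and 17.6% lower). In this fit, without a block, the share of members was near that of all features. ppk31, ppk24 and ppk8 rose, and ppk32, ppk27, ppk25, ppk29 and ppk9 fell. Under quantile normalization the split was 3 higher and 8 lower, beside 12.6% and 21.4% of all features. That is 50.0% of members beside 34.1% of all features. The array numbers were read as pairing these strains. With the replicate block 13 members passed, 3 higher and 10 lower, beside 18.4% and 22.9% of all features. There the share of members was 59.1%, above the 41.3% of all features, so the nearness depends on the fit. The 5 added by the block were ppk1, ppk3, ppk6, ppk11 and ppk26, all lower. The median change was -0.084, against -0.027 over all features. For 5 members the dcr1ΔC33 arrays lay above all wild-type arrays and for 9 below, beside 20.6% and 28.8% of all features.

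The 4 smaller falls in dcr1ΔC33 passed the threshold by a small margin. ppk27 (SPBC337.04) went from 10.36, 10.30 and 10.33 in wild-type to 9.99, 10.15 and 10.25, a change of -0.20 ± 0.06 (adjusted p = 0.0241). ppk25 (SPBC32C12.03c, older name kin2) went from 12.99, 12.99 and 12.91 to 12.75, 12.76 and 12.87, a change of -0.17 ± 0.05 (adjusted p = 0.0317). ppk29 (SPBC557.04), of the Ark1 and Prk1 type, went from 12.92, 13.04 and 12.96 to 12.84, 12.87 and 12.87, a change of -0.12 ± 0.04 (adjusted p = 0.0290). In all 3 genes the strains did not overlap. ppk9 (SPAC23H4.02) went from 13.94, 14.03 and 14.01 to 13.88, 13.89 and 13.89, a change of -0.10 ± 0.03 (adjusted p = 0.0301), again without overlap. Leaving out 1 array ended the call of ppk27 and of ppk25 for 4 of the 6 arrays compared (adjusted p up to 0.0689 and 0.0992) and that of ppk29 and of ppk9 for 5 of 6 (up to 0.0938 and 0.0930). fes1, next to ppk25, rose by 0.80 ± 0.10 in the same comparison (adjusted p = 0.000407). Beside ppk27, without overlap, rhn1 fell with it (-0.23 ± 0.05, adjusted p = 0.00741) and cct8 differed by -0.18 ± 0.06 (adjusted p = 0.0548). The neighbours of ppk29 and ppk9 gave no call, and the part of neighbouring RNA in these values was not tested.

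Short of the threshold in dcr1ΔC33, the largest differences were those of ppk33 (0.33 ± 0.12, adjusted p = 0.0541), ppk1 (-0.19 ± 0.17, adjusted p = 0.411) and ppk11 (-0.17 ± 0.07, adjusted p = 0.0789). ppk33 (SPCC162.10), also a dim feature, lay at 9.11, 9.23 and 9.09 on wild-type arrays and at 9.66, 9.24 and 9.33 on dcr1Δ arrays. The dcr1ΔC33 arrays read 9.45, 9.31 and 9.66 and the dcr1-SHSS arrays 9.25, 9.51 and 9.24. All 9 mutant arrays were above the wild-type arrays, with a wide spread inside each mutant. ppk11 (SPAC2C4.14c), the germinal centre kinase gene, lay at 12.74, 12.92 and 12.84 in wild-type, and at 12.64, 12.66 and 12.68 in dcr1ΔC33.

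In dcr1-SHSS, 9 of 22 members passed against wild-type, 5 higher and 4 lower, which is 40.9% beside 40.7% of all features (15.0% higher and 25.8% lower). In this fit the share was again that of all features. ppk31, ppk8, ppk24, ppk15 and ppk30 rose, and ppk32, ppk27, ppk16 and ppk29 fell. Under median centring the split was 6 higher and 1 lower, beside 877 and 1173 of all features. The median change was -0.056, against -0.057 over all features. For 7 members the dcr1-SHSS arrays lay above all wild-type arrays and for 7 below, beside 17.8% and 32.6% of all features.

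ppk15 (SPAC823.03), of the Yak1 type, went from 11.47, 11.63 and 11.48 in wild-type to 11.70, 11.74 and 11.76 in dcr1-SHSS, a change of 0.21 ± 0.07 (adjusted p = 0.0415). ppk30 (SPBC6B1.02), of the Ark1 and Prk1 type, went from 12.33, 12.36 and 12.30 to 12.43, 12.43 and 12.41, a change of 0.09 ± 0.03 (adjusted p = 0.0477). The arrays of the 2 strains did not overlap for either gene. The gene pal2, which overlaps ppk30, rose by 0.85 ± 0.11 in dcr1-SHSS (adjusted p = 0.000227). It is a dim feature, with means of 5.93 in wild-type and 6.78 in dcr1-SHSS. mot1, on the other side without overlap, fell by 0.20 on the log2 scale (-0.20 ± 0.05, adjusted p = 0.00669). The part of either RNA in the ppk30 value was not tested. ppk27 fell to 10.15, 10.14 and 10.19, a change of -0.17 ± 0.06 (adjusted p = 0.0376). ppk16 (SPAC890.03, older name mug92) went from 12.55, 12.65 and 12.55 to 12.51, 12.40 and 12.42, a change of -0.14 ± 0.04 (adjusted p = 0.0271). ppk29 fell to 12.88, 12.87 and 12.86, a change of -0.11 ± 0.04 (adjusted p = 0.0302). All 3 stood below wild-type without overlap. ytm1, which overlaps ppk16, fell by 0.19 on the log2 scale in the same comparison (-0.19 ± 0.05, adjusted p = 0.0120), and both neighbours of ppk27 fell as well, rhn1 (-0.20 ± 0.05, adjusted p = 0.0123) and cct8 (-0.21 ± 0.06, adjusted p = 0.0209). The part of these RNAs in the ppk16 and ppk27 values was not tested. The call of ppk27 ended without any 1 of the 6 arrays (adjusted p up to 0.104), that of ppk16 for 3 of 6 (up to 0.0903), and those of ppk15, ppk30 and ppk29 for 5 of 6 (up to 0.123, 0.139 and 0.0934).

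Of the Ark1 and Prk1 type, ppk29 thus fell in dcr1ΔC33 and dcr1-SHSS and ppk30 rose in dcr1-SHSS. The third, ppk38 (SPCP1E11.02), differed by -0.05, -0.00 and 0.03 (± 0.04) and passed in no mutant. Short of the threshold in dcr1-SHSS, the largest differences were those of ppk1 (-0.28 ± 0.17, adjusted p = 0.201), ppk33 (0.19 ± 0.12, adjusted p = 0.215) and ppk11 (-0.16 ± 0.07, adjusted p = 0.0873). Counted over the mutants, 1 member passed in all 3, 5 in 2, 5 in 1 and 11 in none. Of all features 2.81% passed in all 3, 23.3% in 2, 21.2% in 1 and 52.7% in none. In the fit without a block the family's counts were thus close to those of all features. At 1.5-fold and an adjusted p below 0.05, ppk31 was higher in every mutant and ppk8 in dcr1-SHSS, beside 1.02%, 4.07% and 4.58% of all features that were higher by as much in dcr1Δ, dcr1ΔC33 and dcr1-SHSS. No member was lower by 1.5-fold, beside 0.109%, 0.219% and 0.328% of all features.

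Between the mutants, 2 of 22 members differed in dcr1ΔC33 against dcr1Δ, ppk31 higher and ppk32 lower, beside 7.9% of all features (4.61% higher and 3.28% lower). The ppk32 difference was -0.18 ± 0.05 (adjusted p = 0.0468) and was lost under median centring, which left 1 higher and 0 lower, and without 5 of the 6 arrays (adjusted p up to 0.134). With the replicate block, for which the numbers were read as pairing these strains, ppk8 passed as well (0.22, adjusted p = 0.0499), beside 15.4% of all features.

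In dcr1-SHSS against dcr1Δ, 5 of 22 members differed, 4 higher and 1 lower, beside 26.6% of all features (8.85% higher and 17.7% lower). ppk31 was higher as given above, and ppk8 was higher by 0.47 ± 0.08 (1.38-fold, adjusted p = 0.00353) and kept its call without any 1 array. ppk24 was higher by 0.26 ± 0.07 (adjusted p = 0.0266) and ppk30 by 0.12 ± 0.03 (adjusted p = 0.0225), and ppk32 was lower by 0.18 on the log2 scale (-0.18 ± 0.05, adjusted p = 0.0214). Each of these last 3 calls ended without 4 of the 6 arrays, left out singly (adjusted p up to 0.0841, 0.0748 and 0.0738). The numbers were read as pairing these strains too. With the replicate block 8 members passed, 5 higher and 3 lower, with ppk15 added as higher and ppk1 and ppk3 as lower. Under that block 35.3% of all features passed (11.7% higher and 23.7% lower).

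In dcr1-SHSS against dcr1ΔC33, 0 of 22 members passed in limma, beside 0.146% of all features (0.0547% higher and 0.0912% lower). At an unadjusted p below 0.05 there were 3 of 22 members, beside 15.4% of all features. The 2 largest differences were those of ppk31 (0.38) and ppk8 (0.25 ± 0.08, adjusted p = 0.186).

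ppk1 (SPAC110.01) showed a pattern by array number beside one by strain. Arrays 1, 2 and 3 read 12.50, 12.76 and 12.42 for wild-type, 12.33, 12.74 and 12.32 for dcr1Δ, 12.26, 12.64 and 12.21 for dcr1ΔC33, and 12.15, 12.60 and 12.08 for dcr1-SHSS. The array numbered 2 was the highest in every strain, above the mean of the other two by 0.30, 0.41, 0.40 and 0.48. A lead of at least 0.20 in all 4 strains was found in 28 of 5483 features (0.511%), and ppk1 was the only ppk gene among them. Array 2 was the highest in every strain, by any amount, for 423 features (7.71%) and 2 ppk genes, ppk1 and ppk30. Among arrays of the same number, ppk1 always ran from wild-type at the top to dcr1-SHSS at the bottom. With the replicate number as a block it was lower than wild-type by 0.19 on the log2 scale in dcr1ΔC33 (-0.19, adjusted p = 0.00733), and lower than dcr1Δ by 0.19 in dcr1-SHSS (-0.19, adjusted p = 0.00987). The labels do not say what the array numbers stand for, and the part of a shared batch in this pattern was not tested.

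**Figure D4:**
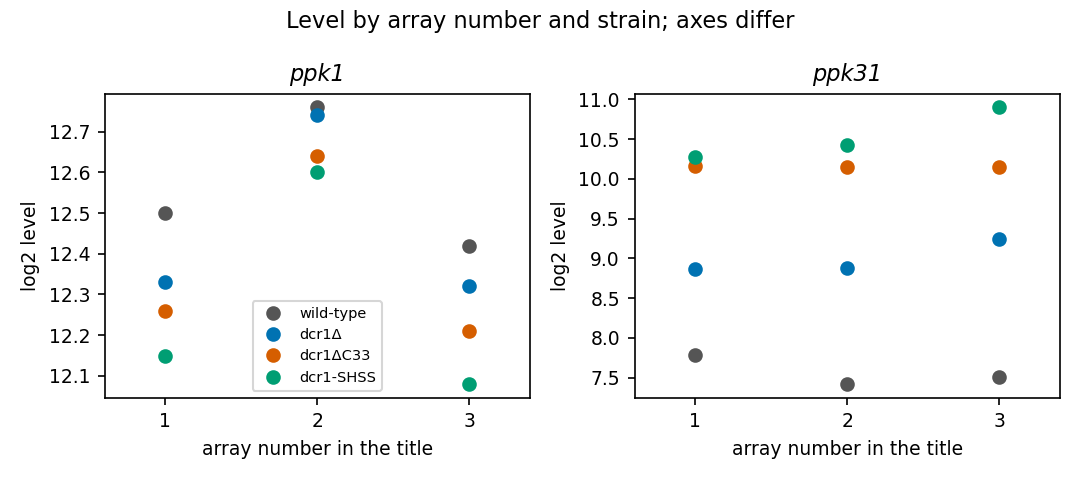
Log2 level (y axis, which differs between panels) of ppk1 and ppk31 by the array number in the sample title (x axis), 1 colour per strain. For ppk1 array 2 stands highest in all 4 strains, at 12.60 to 12.76, whereas the strains of ppk31 keep apart at each number.

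The genes whose profile over the 12 arrays was most like that of ppk31 were osr1 (Pearson r = 0.991), SPCC70.04c (r = 0.991), agp3 (r = 0.991), SPCC757.13 (r = 0.986) and htr11 (r = 0.984). These values describe 12 arrays that fall into 4 strains and share the array scaling, so they mostly follow the strain means. Against wild-type osr1 differed by 1.33, 2.41 and 2.91, SPCC70.04c by 1.39, 2.61 and 2.87, and agp3 by 1.06, 2.25 and 2.40 in dcr1Δ, dcr1ΔC33 and dcr1-SHSS, beside 1.43, 2.59 and 2.97 for ppk31. SPCC757.13 differed by 0.80, 1.77 and 1.85 and htr11 by 0.78, 1.59 and 1.65. Within the family r with ppk31 was 0.895 for ppk8, 0.886 for ppk24, -0.951 for ppk32, -0.878 for ppk29 and 0.042 for ppk18.

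Other gene groups gave the setting of these changes. All gene lists were chosen with earlier results of these data known. Among 81 measured protein kinase genes with other names, 2 rose and 0 fell in dcr1Δ, 14 rose and 10 fell in dcr1ΔC33, and 18 rose and 15 fell in dcr1-SHSS. The shares that rose were 2.47%, 17.3% and 22.2%, beside 2.81%, 14.7% and 15.0% of all features. In dcr1ΔC33 and dcr1-SHSS 12.3% and 18.5% fell, beside 17.6% and 25.8% of all features. Medians were 0.01, -0.00 and 0.01, against 0.00, -0.027 and -0.057 over all features. The largest rise among these kinase genes was that of mug27, a meiotic kinase gene with an older ppk name, by 0.55, 1.16 and 1.10 (± 0.09, adjusted p = 0.00891, 1.26e-05 and 1.48e-05). mde3 rose by 0.20 ± 0.04 in dcr1Δ (adjusted p = 0.0401) and oca2 by 0.43 ± 0.08 in dcr1ΔC33 (adjusted p = 0.00315). hri1, which encodes a kinase of the translation factor eIF2, rose by 0.57 ± 0.16 in dcr1-SHSS (adjusted p = 0.0194). mik1, the relative of wee1 that restrains Cdc2, fell by 0.42 ± 0.07 in dcr1ΔC33 and by 0.62 ± 0.07 in dcr1-SHSS (adjusted p = 0.00147 and 0.000104).

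The 12 genes with ppk only as an older name were tea5, ire1, pom2, hal4, vps15, ksp1, pdk1, cdk11, gcn2, ckk2, mug27 and atg1. Of these, ire1, hal4, ksp1, gcn2, mug27 and atg1 are also counted among the other protein kinase genes above, so the lists are not separate. In dcr1Δ 1 of them rose (mug27), in dcr1ΔC33 4 rose and 2 fell, and in dcr1-SHSS 4 rose and 4 fell. The shares that rose were 8.33%, 33.3% and 33.3%, beside 2.81%, 14.7% and 15.0% of all features. In dcr1ΔC33 and dcr1-SHSS 16.7% and 33.3% fell, beside 17.6% and 25.8% of all features. atg1, which starts autophagy, rose by 0.28 and 0.39 (± 0.03) in the latter strains, vps15, of the phosphatidylinositol 3-kinase complex, by 0.26 and 0.27 (± 0.05), and gcn2, an eIF2 kinase gene, by 0.18 and 0.15 (± 0.05). cdk11 fell by 0.33 and 0.37 (± 0.05) and pom2 by 0.19 and 0.25 (± 0.05). tea5 and pdk1 fell in dcr1-SHSS by 0.19 and 0.13 (± 0.05). Medians were -0.03, -0.02 and -0.00.

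Core environmental stress genes were called higher most often in the strains where ppk31 was highest. Of 20 measured, 6 rose in dcr1Δ, 15 rose in dcr1ΔC33 and 17 rose in dcr1-SHSS, and 0 fell in any, with medians of 0.19, 0.45 and 0.60. These are 30.0%, 75.0% and 85.0% of the list, beside 2.81%, 14.7% and 15.0% of all features that rose. Because the list was chosen with earlier results of these data known, its shares are not an independent result. The other 14 genes did not pass in dcr1Δ, where the count was 3 without dcr1Δ array 2. In dcr1ΔC33 9 were higher than in dcr1Δ and in dcr1-SHSS 14, which is 45.0% and 70.0% beside 4.61% and 8.85% of all features. Between dcr1-SHSS and dcr1ΔC33 0 differed (3 at an unadjusted p below 0.05). Only 0.146% of all features differed there (15.4% at an unadjusted p below 0.05), so that count does not set the list apart. cta3, which encodes a cation-pumping ATPase, rose by 2.78, 4.09 and 4.31 (± 0.15). zym1, the metallothionein gene, rose by 1.27, 2.16 and 2.35 (± 0.14), and hsp16, a small heat-shock protein gene, by 1.46, 1.96 and 2.16 (± 0.19). Their part in the ppk31 result was not tested.

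Markers of mating, meiosis and sporulation were read as signs of another cell state. Of 19 measured, 3 rose in dcr1Δ, 4 rose in dcr1ΔC33 and 3 rose in dcr1-SHSS, where 1 also fell, with medians of 0.10, 0.14 and 0.01. The shares that rose, 15.8%, 21.1% and 15.8%, stood beside 2.81%, 14.7% and 15.0% of all features, so in dcr1-SHSS the share was that of all features. isp3, a spore coat gene, rose by 0.91, 1.08 and 0.89 (± 0.11), and map2, for the P-factor pheromone, by 0.36, 0.48 and 0.46 (± 0.08). spo6 rose by 0.48 ± 0.06 in dcr1Δ, mfm3, for the M-factor pheromone, by 0.63 ± 0.15 in dcr1ΔC33, and mek1, a meiotic kinase gene, by 0.24 ± 0.08 in dcr1-SHSS. These genes were named for the largest called changes, and not all of the list moved with them. ste11, also on the list, differed by -0.20, -0.31 and -0.37 (± 0.38) and did not pass. With the replicate block 10 of the 19 passed in dcr1ΔC33, beside 41.3% of all features. Their part in the changes of ppk31 and ppk16, both of which carry older names from a screen for genes upregulated in meiosis, was not tested.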

How the data were processed

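Per the labels' protocols, 200 ng of total RNA per array was labelled by a double-stranded Affymetrix target assay. The authors deposited log2 levels, 1 per feature and array, summarised with R 2.10.0 and affy, per the submitters' processing notes. The sources used here do not state background correction, normalization, centring or build, so no coordinates are printed, and no detection call or depth was used; 3 arrays per strain limit the precision. IDs were matched to the RefSeq gene table of assembly ASM294v3 (5357 of 5483, 5337 by locus tag and 20 by synonym), which served for names and neighbours only. Promoter and protein sequences were not analysed here.

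The deposited values were used as given in limma 3.58.1 (R 4.3.3), with 1 coefficient per strain, all 12 arrays and moderated variances (2.44 prior and 8 residual degrees of freedom), 2-sided tests of 6 comparisons and Benjamini-Hochberg adjustment over all 5483 features, at an adjusted p below 0.05 with no fold filter. P-values measure the spread between these arrays. The procedure was tested on simulated data. The simulated arrays had independent noise and no effect of array number, so this test does not cover such an effect. Members and lists were chosen with earlier results of these data known. Named genes were dcr1, all members called against wild-type, up to 3 members short of the threshold per comparison, members called between mutants, up to 3 genes per list and the 5 genes most like ppk31; neighbouring genes, cek1, igo1, ppk1, ppk18, ppk38 and the called genes with older ppk names were added after their values were seen.

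Pairing by array number was checked through the correlation of same-numbered arrays after subtracting strain means. With wild-type, these correlations for numbers 1, 2 and 3 were 0.151, 0.354 and 0.252 for dcr1Δ, and 0.177, 0.388 and 0.223 for dcr1ΔC33. With dcr1Δ they were 0.184, 0.300 and 0.131 for dcr1ΔC33, and 0.178, 0.437 and 0.266 for dcr1-SHSS. All these are above 0.1, the cut-off used, so the numbers were read as pairing there. They were not for dcr1-SHSS with wild-type (0.0931, 0.284 and 0.266) or dcr1ΔC33 (0.0206, 0.351 and 0.139), where the lowest fell short. If a number pairs dcr1Δ with wild-type and with dcr1-SHSS, it also pairs wild-type with dcr1-SHSS. The split thus follows the cut-off and does not show which arrays belong together. The block was fitted over all strains at once, so its results also draw on the comparisons not read as pairing. The values were also fitted after quantile normalization or median centring, without the dimmest 20 percent of features, with the 2 compared strains alone, with the replicate number as a block, and with each array left out.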

Additional observations from a re-analysis of the deposited data

How the results depend on the processing

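The calls of ppk31 held under every alternative that kept the gene. Leaving out the lowest 20 percent of features drops ppk31, ppk24 and ppk33, so the count of ppk genes called was then 0 in dcr1Δ against wild-type, and 1 in dcr1ΔC33 and 3 in dcr1-SHSS against dcr1Δ. With the 2 strains alone these last counts were 1 and 2, and median centring gave 1 in dcr1ΔC33 against dcr1Δ. With the replicate block the counts were 13 in dcr1ΔC33 against wild-type, 8 in dcr1-SHSS against dcr1Δ and 3 in dcr1ΔC33 against dcr1Δ. The block changed no call in dcr1Δ against wild-type. For dcr1-SHSS against wild-type, where the numbers were not read as pairing, the block gave 13 (6 higher, 7 lower) in place of 9, beside 48.4% of all features, with ppk1 (-0.284, adjusted p = 0.000931), ppk3, ppk6 and ppk14 added. Without ppk31, an alternative chosen after seeing the data, counts were 0 in dcr1Δ against wild-type and 1 in dcr1ΔC33 against dcr1Δ.

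With 1 array left out the counts ranged over 1 to 2, 5 to 7 and 4 to 7 for dcr1Δ, dcr1ΔC33 and dcr1-SHSS against wild-type, and 1 to 2 and 2 to 4 for dcr1ΔC33 and dcr1-SHSS against dcr1Δ. The value of 2 in dcr1Δ came without dcr1Δ array 1, 5 in dcr1ΔC33 without wild-type array 2 or 3 or dcr1ΔC33 array 1 or 2, and 4 in dcr1-SHSS without its array 3. The change of dcr1 in dcr1ΔC33 ranged from 0.281 to 0.336. Small uncalled differences changed sign. Under median centring ppk9 and ppk18 were at 0.004 and 0.011 in dcr1-SHSS. With 1 array left out the ranges in dcr1Δ were -0.234 to 0.003 (ppk1), -0.059 to 0.032 (ppk3), -0.070 to 0.001 (ppk6), -0.105 to 0.007 (ppk11), -0.050 to 0.019 (ppk13), -0.031 to 0.123 (ppk15), -0.060 to 0.012 (ppk22) and -0.043 to 0.027 (ppk25). They were -0.036 to 0.008 (ppk18) and -0.041 to 0.022 (ppk38) in dcr1ΔC33, and -0.040 to 0.005 (ppk9), -0.056 to 0.025 (ppk18) and -0.005 to 0.058 (ppk38) in dcr1-SHSS.

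Among the lists, other kinases in dcr1Δ gave 0 under quantile normalization, 1 under median centring, 0 without dim features, 1 with the 2 strains alone and 1 to 2 with 1 array left out, and in dcr1ΔC33 13 to 18. The Greatwall, PP2A and TOR list gave 3 and 2 with the 2 strains alone in dcr1ΔC33 and dcr1-SHSS, and 2 to 5 and 3 to 5 with 1 array left out. The stress list in dcr1Δ gave 3 with the 2 strains alone and 3 to 7 with 1 array left out. The mating list gave 2 without dim features and 10 with the block in dcr1ΔC33, and 9 with the block, 2 with the 2 strains alone and 2 to 3 with 1 array left out in dcr1-SHSS. Genes with older ppk names, a list added after seeing the data, gave 0 without dim features in dcr1Δ, and 5 with the 2 strains alone and 5 to 7 with 1 array left out in dcr1-SHSS. The cause was not tested, other than that fewer arrays or features enter several of these fits.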
